A study of Mus musculus with 6 samples.

Results

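The cytochrome P450 genes of families 1 to 3, which encode the main drug- and steroid-oxidising enzymes of the liver, were compared between ethanol-fed mouse livers with and without hepatocyte ACSS2. The genes were taken by name, as symbols of the form Cyp1, Cyp2 or Cyp3 with a subfamily letter and a number, whatever their expression. Cyp2e1 and Cyp2c70 were left aside, so that 49 of the 16135 genes in the table were members. ACSS2-HKO (n = 3 libraries) were mice with a hepatocyte-specific knockout of Acss2, the acetyl-CoA synthetase of cytosol and nucleus, and ACSS2-flox (n = 3), mice with the floxed gene, were their controls. Both genotypes were kept for 10 days on the Lieber-DeCarli liquid diet with ethanol and then given 1 ethanol binge, so no library came from a liver without ethanol. The labels give no Cre driver, age, sex or strain, nor whether each library is a separate animal, so p-values measure the spread between these libraries, which may be partly technical. The measured value was FPKM, fragments scaled to gene length and to the library's total, and values are given for replicates 1, 2 and 3 in that order.

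P450 enzymes are haem proteins of the endoplasmic reticulum that insert an oxygen atom into lipophilic substrates, with electrons supplied by the reductase Por and by cytochrome b5. Families 1 to 3 clear drugs, plant toxins and steroids, and several Cyp2c and Cyp2j enzymes also oxidise arachidonic acid. Their genes lie in tandem groups of similar copies and are largely transcribed in hepatocytes around the central vein. Nuclear receptors that sense foreign compounds, CAR (Nr1i3) and PXR (Nr1i2), and the aryl hydrocarbon receptor Ahr switch many of them on, and in mice the sex-specific pattern of growth hormone release makes some female-biased and others male-biased.

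Acss2 itself read 50.6, 38.4 and 45.7 FPKM in ACSS2-HKO and 87.8, 61.5 and 58.5 FPKM in ACSS2-flox. Each ACSS2-HKO library was below every ACSS2-flox library, with a fold change of -0.60 ± 0.21 on the log2 scale (± SE), or -0.43 without the 2 libraries described next. The value covers the whole gene and all liver cells. ACSS2-HKO replicate 3 and ACSS2-flox replicate 1 differed most from the rest: on the first principal component, which held 47.2% of the variance, they lay at 27.6 and -47.7, and the other 4 between 2.51 and 8.49. Many fold changes below are also given without 1 or both libraries of this distant pair. The FPKM values implied totals of 33717125 to 39474527 fragments per library.

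Of the 49 genes, 40 reached a mean of 1 FPKM over the 6 libraries and were tested. Of these, 20 averaged more than 100 FPKM and 3 more than 1000 FPKM: Cyp3a11, Cyp2a4 and Cyp2a5. Summed over all 49 genes, the level was 10640, 11110 and 7494 FPKM in ACSS2-HKO and 11750, 13010 and 10960 FPKM in ACSS2-flox. The sums of ACSS2-HKO replicates 1 and 2 lay near those of ACSS2-flox, and the sum of ACSS2-HKO replicate 3 was the lowest. The mean was 9747 ± 1965 FPKM in ACSS2-HKO and 11910 ± 1033 FPKM in ACSS2-flox (SD, n = 3 each). In whole liver, fewer cells of a type and less RNA per cell cannot be told apart.

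No P450 gene passed the adjusted threshold. By limma on log2(FPKM + 1), 0 of the 40 tested genes had a Benjamini-Hochberg adjusted p under 0.05, and the same held for all 9818 tested genes (0%). The smallest adjusted p of a P450 gene was 0.636. Limma voom on the recovered fragments likewise gave 0 after adjustment, and 4 lower and 0 higher at an unadjusted p under 0.05. At an unadjusted p under 0.05, 4 of 40 read lower in ACSS2-HKO, Cyp2c69, Cyp2c40, Cyp2g1 and Cyp2c23, where 1.5% of all tested genes did. None of the 40 read higher at that threshold, where 6.09% of all tested genes did. The 3 ACSS2-HKO values lay below all ACSS2-flox values for 4 of 40 genes (Cyp2c40, Cyp2g1, Cyp2c23 and Cyp2j5), against 2.94% of all tested genes, and above them for Cyp3a13 alone, against 12.5%.

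In direction the P450 genes leaned low. The log2 fold change (ACSS2-HKO minus ACSS2-flox) was negative for 35 of 40 genes, against 34% of all tested genes. Its median was -0.25 over the 40 genes and 0.10 over all tested genes, or -0.35 relative to all genes. ACSS2-HKO replicate 3 held the lowest value of 26 of the 40 genes, against 17.2% of all tested genes. Relative to the ACSS2-flox mean, the median log2 level of the 40 genes was -0.07, -0.06 and -0.71 in ACSS2-HKO and 0.13, 0.08 and -0.16 in ACSS2-flox. Over all tested genes it was 0.11, 0.12 and 0.06 in ACSS2-HKO and -0.18, 0.05 and 0.12 in ACSS2-flox. Without ACSS2-HKO replicate 3 the median fold change of the 40 genes was -0.06, against 0.11 over all tested genes, and 25 of the 40 were negative. Without ACSS2-flox replicate 1 it was -0.32, against 0.01 over all tested genes, and 33 were negative. ACSS2-flox replicate 1 held the highest value of 17 of the 40 genes, against 15.7% of all tested genes. That library also held the lowest value of 52.9% of all tested genes, and the all-gene shares above include it. Without both libraries the median fold change of the P450 genes was -0.09, against 0.03 over all tested genes, with 25 negative. With median-ratio scaling it was -0.38, against -0.007 over all tested genes, with 37 negative. The 34% of all tested genes that were negative belongs to the fit of all 6 libraries without rescaling. The shares that go with 25, 33, 25 and 37 negative genes are not given, so these counts cannot be set against 34%. The unadjusted count of 4 lower genes was 7 without ACSS2-HKO replicate 1, 2 without ACSS2-flox replicate 1 (Cyp2c40 and Cyp2g1), 9 without ACSS2-flox replicate 3 and 1 without both ACSS2-HKO replicate 3 and ACSS2-flox replicate 1 (Cyp2g1). The count of 4 genes with all ACSS2-HKO values lower was 11 without ACSS2-HKO replicate 1, 9 without ACSS2-HKO replicate 2 and 15 without ACSS2-flox replicate 3. Groups of fewer libraries separate more easily, and the shares of all tested genes that go with these left-out counts are not given. The counts therefore describe how far the result moves and are not stronger evidence on P450 genes.

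**Figure D1:**
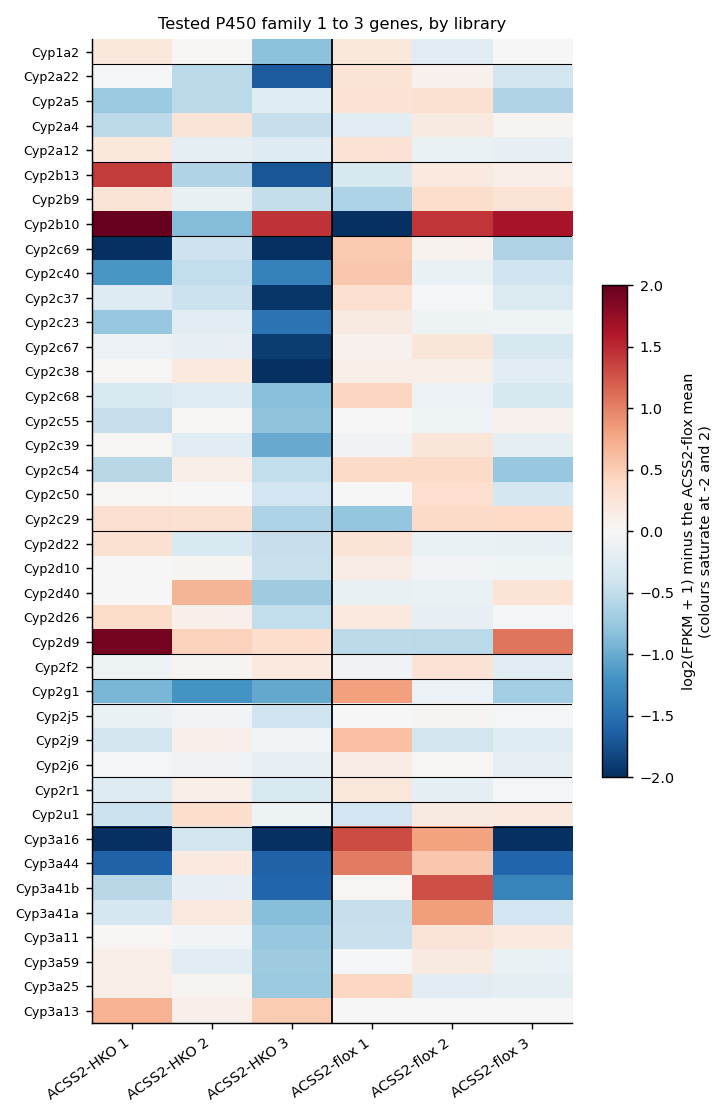
Level of each of the 40 tested P450 genes in each library, as log2(FPKM + 1) minus the ACSS2-flox mean, with subfamilies separated by lines and colours saturating at -2 and 2. Blue, for levels under the ACSS2-flox mean, is most frequent in ACSS2-HKO replicate 3, which holds the lowest value of 26 genes.

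**Figure D2:**
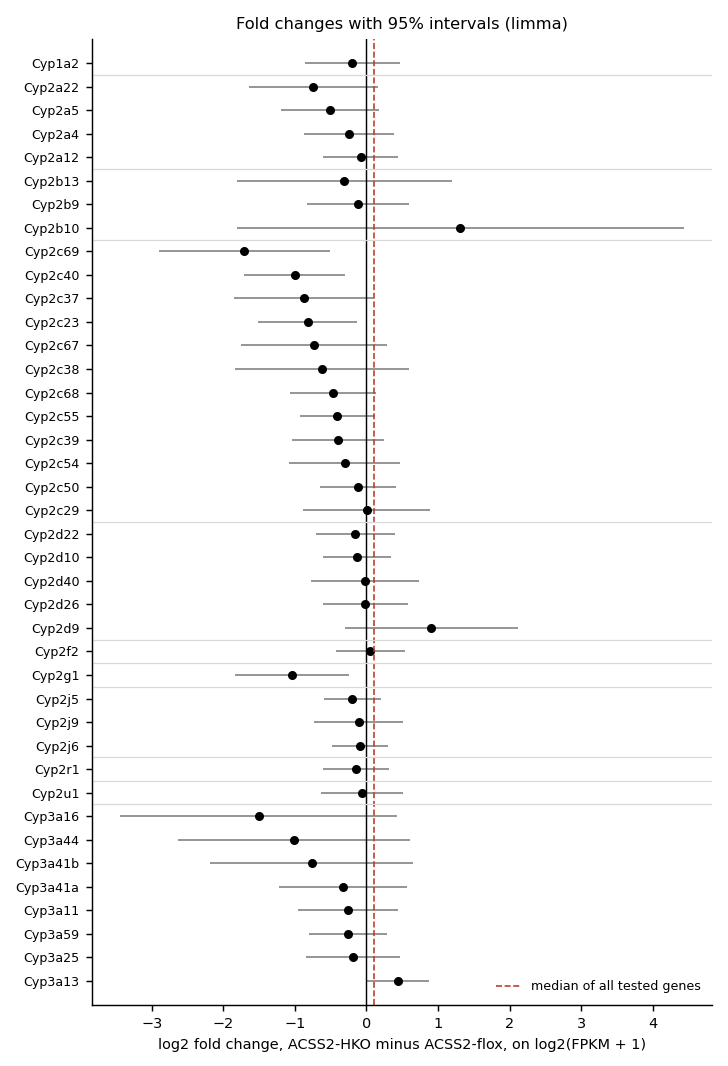
Log2 fold change of each tested P450 gene, ACSS2-HKO minus ACSS2-flox, as limma estimates (points) with 95% intervals (lines). The points of 35 of 40 genes lie under 0, the intervals of 4 genes lie wholly under 0, and the dashed line marks the median of all tested genes, 0.10.

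The Cyp2c subfamily, whose enzymes hydroxylate drugs and in several cases epoxidise arachidonic acid, held 3 of the 4 genes under the unadjusted threshold. Of its 12 tested genes, 11 had a negative fold change, with a median of -0.54. The summed level was 2527, 2833 and 1394 FPKM in ACSS2-HKO and 3271, 3344 and 2789 FPKM in ACSS2-flox. Without ACSS2-HKO replicate 3 the subfamily's median was -0.21, and without both distant libraries it was -0.12.

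Cyp2c69 (chromosome 19, 39842660 to 39886769), a female-biased gene in mouse liver, read 74.8, 291 and 76.6 FPKM in ACSS2-HKO and 563, 411 and 255 FPKM in ACSS2-flox. ACSS2-HKO replicates 1 and 3 were far below every other library, and ACSS2-HKO replicate 2 lay above the lowest ACSS2-flox library, so the groups overlapped. Its log2 fold change was -1.70 ± 0.53, for a limma adjusted p of 0.636 and an exact permutation p of 0.2. Without both distant libraries it was -1.13.

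Cyp2c40 (chromosome 19, 39767073 to 39812814), whose enzyme oxidises arachidonic acid and which is also female-biased, read 101, 162 and 88.4 FPKM in ACSS2-HKO and 331, 207 and 172 FPKM in ACSS2-flox. Every ACSS2-HKO library was below every ACSS2-flox library. The log2 fold change of Cyp2c40 was -1.002 ± 0.31, for a limma adjusted p of 0.637 and an exact permutation p of 0.1, the smallest that 3 libraries against 3 allow. Cyp2c40 kept an unadjusted p under 0.05 in 20 of the 21 settings run, the exception being the fit without both distant libraries, where its fold change was -0.56.

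Cyp2c23 (chromosome 19, 44005022 to 44029256), also called Cyp2c44 and known as an arachidonic acid epoxygenase, read 93.1, 135 and 56.0 FPKM in ACSS2-HKO and 179, 147 and 148 FPKM in ACSS2-flox. The groups did not overlap, and ACSS2-HKO replicate 3 was the lowest. Cyp2c23 had a fold change of -0.82 ± 0.30 (limma adjusted p 0.637), and -0.49 without ACSS2-HKO replicate 3 or -0.40 without both distant libraries. Cyp2c37, whose enzyme also oxidises arachidonic acid, read 469.5, 418 and 145 FPKM in ACSS2-HKO and 701, 555 and 459 FPKM in ACSS2-flox. Only ACSS2-HKO replicate 3 stood well below the ACSS2-flox libraries, and the fold change of -0.88 ± 0.43 was -0.34 without it and -0.19 without both distant libraries.

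**Figure D3:**
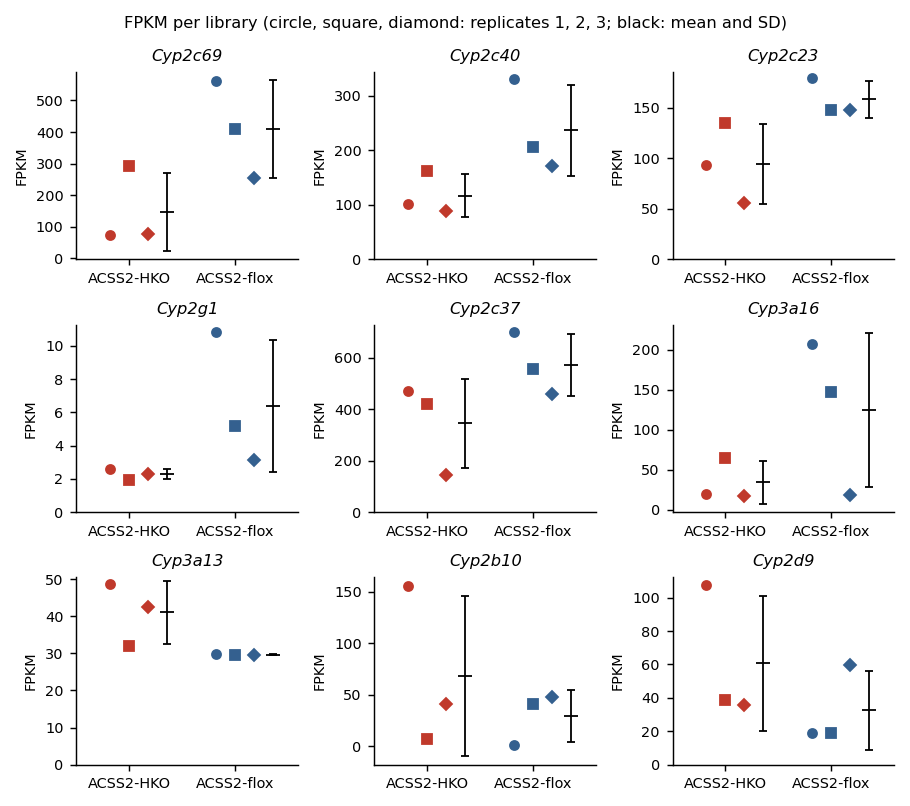
FPKM of 9 P450 genes in each library, with circles, squares and diamonds for replicates 1, 2 and 3 and black bars for the mean and SD of each group (n = 3). ACSS2-HKO lies wholly below ACSS2-flox for Cyp2c40, Cyp2c23 and Cyp2g1 and wholly above it for Cyp3a13, and the groups overlap for the other 5 genes.

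Cyp2c29, the most abundant Cyp2c gene and a classical CAR target, read 1029, 1025 and 538 FPKM in ACSS2-HKO and 481, 1079 and 1087 FPKM in ACSS2-flox. ACSS2-HKO replicate 3 and ACSS2-flox replicate 1 were its low libraries, and the fold change was 0.00 ± 0.39 with a 95% interval of -0.89 to 0.90. Cyp2c68, near Cyp2c40 and Cyp2c69 in sequence and position, read 288, 299.8 and 199 FPKM in ACSS2-HKO and 480.3, 329 and 286 FPKM in ACSS2-flox, a fold change of -0.46 ± 0.26. Its groups overlapped, with ACSS2-flox replicate 1 the highest and ACSS2-HKO replicate 3 the lowest, and without both the fold change was -0.06.

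Cyp2c50 read 255, 248 and 190.4 FPKM in ACSS2-HKO and 249.2, 315 and 196 FPKM in ACSS2-flox, with a fold change of -0.12 ± 0.23. Cyp2c54 read 54.7, 88.0 and 56.9 FPKM in ACSS2-HKO and 105, 105 and 47.1 FPKM in ACSS2-flox, with a fold change of -0.31 ± 0.34. Cyp2c55, which CAR and PXR agonists induce in mice, read 1.34, 2.28 and 0.833 FPKM in ACSS2-HKO and 2.22, 2.02 and 2.38 FPKM in ACSS2-flox, with a fold change of -0.41 ± 0.23. The groups of all 3 overlapped. Without both distant libraries the fold change was -0.02 for Cyp2c54 and -0.21 for Cyp2c55. The fold change of Cyp2c38 was -0.62 and turned positive when ACSS2-HKO replicate 3 was left out (0.11) or both distant libraries were (0.17). Those of Cyp2c39 and Cyp2c67, -0.40 and -0.73, came to -0.099 and -0.15 when that replicate was left out, and to -0.13 and -0.11 when both were.

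Cyp2c40 and Cyp2c69, with the lowest fold changes of the subfamily, share stretches of identical sequence, with each other and with Cyp2c67 and Cyp2c68. Cut into 100-base windows, the Cyp2c40 transcript shared 41.7% of them exactly with another P450 gene, the Cyp2c69 transcript 36.3%, Cyp2c67 23.7% and Cyp2c68 19.8%, so the way the authors' counting divided fragments between them is uncertain. Cyp2c23, Cyp2c29, Cyp2c38, Cyp2c39 and Cyp2c55 shared none. The ratio of Cyp2c69 to Cyp2c40 was 0.743, 1.80 and 0.867 in ACSS2-HKO and 1.70, 1.99 and 1.49 in ACSS2-flox. It was under 1 in ACSS2-HKO replicates 1 and 3 alone, so the 2 genes did not keep a fixed ratio over the libraries.

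Those 4 genes also shared a promoter feature. In the RefSeq promoters (build GRCm38.p6, 250 bases before to 50 after each start), the letters CAAAGTCCA or CAAAGTTCA, sought on both strands as the binding motif of the hepatocyte factor HNF4A, were in 8 of the 42 P450 promoters in the table (19%), against 0.862% of 27025 promoters. All 8 matches read CAAAGTCCA on the gene's strand. The second form contains AGTTCA, a nuclear receptor motif counted apart below. Within the Cyp2c genes the matches were in Cyp2c67 (chr19:39649133-39649192), Cyp2c68 (chr19:39741144-39741203), Cyp2c40 (chr19:39812825-39812884) and Cyp2c69 (chr19:39886810-39886869), all on the minus strand. They are printed 5′ to 3′ to show how alike the copies are, with the motif in capitals.
Cyp2c67: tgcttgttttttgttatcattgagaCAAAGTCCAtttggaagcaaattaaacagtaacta
Cyp2c68: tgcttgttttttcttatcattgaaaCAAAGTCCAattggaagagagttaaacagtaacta
Cyp2c40: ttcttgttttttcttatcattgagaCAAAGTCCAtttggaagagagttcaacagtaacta
Cyp2c69: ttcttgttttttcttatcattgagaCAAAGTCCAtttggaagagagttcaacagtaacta
The 60 bases of Cyp2c40 and Cyp2c69 were identical. The 300-base promoters of Cyp2c69 and Cyp2c68 were 91.1% identical. A match to these letters is a description and not a shown binding site. Hnf4a itself read 167, 149 and 108 FPKM in ACSS2-HKO and 102, 201 and 149 FPKM in ACSS2-flox, a fold change of -0.06 ± 0.28.

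**Figure D4:**
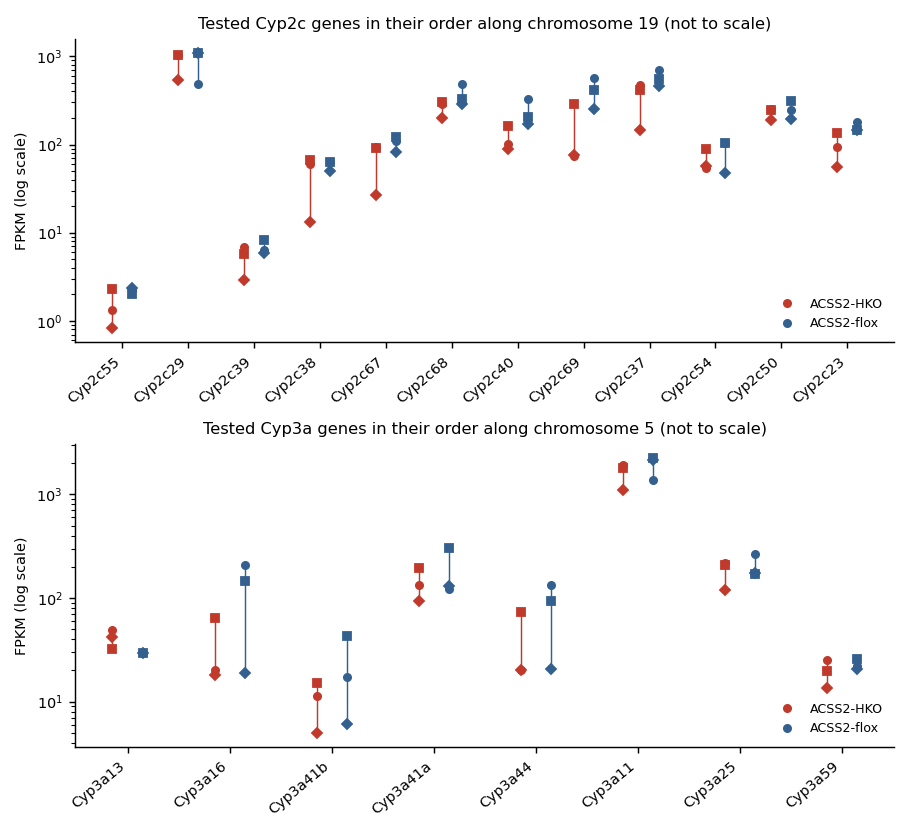
FPKM on a log scale of the tested Cyp2c genes on chromosome 19 and Cyp3a genes on chromosome 5, in genomic order and not to scale, with circles, squares and diamonds for replicates 1, 2 and 3 and lines over each group's range. Cyp2c40 and Cyp2c69 are neighbours, and Cyp3a16, Cyp3a41b and Cyp3a44 span wide ranges in both groups.

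The Cyp3a subfamily oxidises the widest range of drugs and steroids. Of its 8 tested genes, 7 had a negative fold change, with a median of -0.29 (-0.05 without ACSS2-HKO replicate 3), and the summed level was 2405, 2405 and 1421 FPKM in ACSS2-HKO and 2168, 3046 and 2550 FPKM in ACSS2-flox. Cyp3a11, the main PXR target and the most abundant P450 gene of the set, read 1928, 1800 and 1109 FPKM in ACSS2-HKO and 1372, 2235 and 2150 FPKM in ACSS2-flox. ACSS2-HKO replicate 3 and ACSS2-flox replicate 1 were its low libraries, and the fold change was -0.26 ± 0.31, or -0.01 without ACSS2-HKO replicate 3. Cyp3a25 read 218, 207 and 119.6 FPKM in ACSS2-HKO and 265, 172 and 175 FPKM in ACSS2-flox, a fold change of -0.18 ± 0.29 that was 0.29 without both distant libraries.

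Cyp3a13 (chromosome 5, 137892933 to 137925610), expressed in gut as well as liver, was the only tested P450 gene whose ACSS2-HKO values were all above those of ACSS2-flox. It read 48.7, 31.9 and 42.5 FPKM in ACSS2-HKO and 29.7, 29.6 and 29.4 FPKM in ACSS2-flox. The ACSS2-flox libraries were nearly equal, and ACSS2-HKO replicate 2 lay just above them. Cyp3a13 had a fold change of 0.44 ± 0.19, for a limma adjusted p of 0.649 and an exact permutation p of 0.1; with median-ratio scaling it was 0.31 and the groups overlapped.

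Cyp3a16, Cyp3a44 and Cyp3a41b, female-biased genes of mouse liver, varied widely within each genotype. Cyp3a16 (chromosome 5, 145436309 to 145469740) read 20.4, 64.8 and 17.9 FPKM in ACSS2-HKO and 207, 147 and 18.7 FPKM in ACSS2-flox. Cyp3a44 (chromosome 5, 145773983 to 145805891) read 20.2, 72.7 and 19.97 FPKM in ACSS2-HKO and 132, 92.9 and 20.6 FPKM in ACSS2-flox. For both, ACSS2-HKO replicate 2 and ACSS2-flox replicates 1 and 2 were high and the other 3 libraries lay close together at the low end, ACSS2-flox replicate 3 included. The fold changes were -1.51 ± 0.84 and -1.01 ± 0.71, for limma adjusted p-values of 0.686 and 0.742. Without both distant libraries they were -0.53 and -0.19. The ratio of Cyp3a16 to Cyp3a44 was 1.01, 0.891 and 0.896 in ACSS2-HKO and 1.57, 1.58 and 0.909 in ACSS2-flox, and thus above 1.5 in the 2 high ACSS2-flox libraries alone.

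Cyp3a41b read 11.2, 15.1 and 4.995 FPKM in ACSS2-HKO and 17.5, 43.0 and 6.11 FPKM in ACSS2-flox, a fold change of -0.77 ± 0.62 that was -0.34 without both distant libraries. Its near copy Cyp3a41a read 133, 194 and 92.7 FPKM in ACSS2-HKO and 122, 301 and 129 FPKM in ACSS2-flox, a fold change of -0.33 ± 0.39. Their transcripts shared 88.2% and 90.8% of 100-base windows with another P450 gene, so the division of fragments between this pair is uncertain. ACSS2-flox replicate 2 was the highest library for both, and without it the fold change of Cyp3a41a was 0.09.

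The other 4 HNF4A matches lay in Cyp3a genes. The promoters of Cyp3a16 (chr5:145469674-145469973) and Cyp3a44 (chr5:145805825-145806124), both on the minus strand of GRCm38.p6, were 93.4% identical, and are printed whole because the 2 genes were high and low in the same libraries. Capitals mark the HNF4A letters CAAAGTCCA in Cyp3a16 and the nuclear receptor motif AGGTCA in Cyp3a44, which has no match to the HNF4A letters. The windows around the matches of Cyp3a41b (chr5:145584791-145584850) and Cyp3a11 (chr5:145879929-145879988), also on the minus strand, follow.
Cyp3a16: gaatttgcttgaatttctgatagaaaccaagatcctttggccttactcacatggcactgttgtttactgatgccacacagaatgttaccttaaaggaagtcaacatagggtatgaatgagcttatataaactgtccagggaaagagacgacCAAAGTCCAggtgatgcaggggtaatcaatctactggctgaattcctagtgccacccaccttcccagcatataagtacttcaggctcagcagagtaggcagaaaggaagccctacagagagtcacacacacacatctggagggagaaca
Cyp3a44: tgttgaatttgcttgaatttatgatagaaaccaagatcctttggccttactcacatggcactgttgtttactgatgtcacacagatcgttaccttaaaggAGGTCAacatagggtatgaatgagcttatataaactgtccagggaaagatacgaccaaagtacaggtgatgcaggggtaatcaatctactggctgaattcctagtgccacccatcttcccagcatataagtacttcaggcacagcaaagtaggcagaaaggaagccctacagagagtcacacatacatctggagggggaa
Cyp3a41b: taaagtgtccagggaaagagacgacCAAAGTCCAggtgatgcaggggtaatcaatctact
Cyp3a11: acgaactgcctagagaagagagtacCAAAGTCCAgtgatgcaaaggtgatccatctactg
The fourth match, in Cyp3a41a (chr5:145720197-145720256, minus strand), lies in 60 bases identical in sequence to those printed for Cyp3a41b. The motif AGGTCA was in 15 of the 42 P450 promoters (35.7%), against 16% of all promoters, and AGTTCA in 6 (14.3%), against 14%. The letters TTCCNNGAA, sought for STAT factors, were in 0 of 42, against 4.94%.

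The Cyp2a genes were among the most abundant, and all 4 had a negative fold change, with a median of -0.38 (-0.19 without both distant libraries). The summed level was 2758, 3464 and 2849 FPKM in ACSS2-HKO and 3931, 4175 and 3202 FPKM in ACSS2-flox. Cyp2a5, the mouse coumarin hydroxylase, read 798, 922 and 1131 FPKM in ACSS2-HKO and 1646, 1667 and 882 FPKM in ACSS2-flox. ACSS2-flox replicate 3 lay among the ACSS2-HKO libraries, and the fold change was -0.51 ± 0.30 (limma adjusted p 0.697). Cyp2a4, a female-biased steroid hydroxylase gene, read 1104, 1907 and 1156 FPKM in ACSS2-HKO and 1358, 1796 and 1657 FPKM in ACSS2-flox, a fold change of -0.24 ± 0.28. The ratio of Cyp2a4 to Cyp2a5 was 1.38, 2.07 and 1.02 in ACSS2-HKO and 0.825, 1.08 and 1.88 in ACSS2-flox.

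Cyp2a22 read 132, 91.9 and 41.4 FPKM in ACSS2-HKO and 163, 142 and 103 FPKM in ACSS2-flox. ACSS2-HKO replicate 1 lay among the ACSS2-flox values and ACSS2-HKO replicate 3 well below them, a fold change of -0.74 ± 0.39, or -0.28 without replicate 3 and -0.14 without both distant libraries. Cyp2a12, whose enzyme hydroxylates bile acids in mice, read 724, 544 and 521 FPKM in ACSS2-HKO and 764, 569 and 559 FPKM in ACSS2-flox, a fold change of -0.08 ± 0.23. Its groups overlapped, with replicate 1 the highest in each.

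The Cyp2b genes varied widely between libraries of the same genotype. Cyp2b10, the standard indicator of CAR activity in mice, read 156, 7.47 and 41.0 FPKM in ACSS2-HKO and 0.805, 40.6 and 47.5 FPKM in ACSS2-flox. The highest and the lowest libraries, ACSS2-HKO replicate 1 and ACSS2-flox replicate 1, differed 194-fold, the widest range of the 40 genes. Cyp2b10 had a fold change of 1.31 ± 1.37, with a 95% interval of -1.81 to 4.44, and turned to -0.23 without ACSS2-flox replicate 1. Cyp2b13 and Cyp2b9 are female-biased. Cyp2b13 read 224, 55.4 and 25.1 FPKM in ACSS2-HKO and 67.6, 96.6 and 92.9 FPKM in ACSS2-flox, a fold change of -0.31 ± 0.66. Cyp2b9 read 385, 286 and 228 FPKM in ACSS2-HKO and 206, 406 and 383 FPKM in ACSS2-flox, a fold change of -0.12 ± 0.31. ACSS2-flox replicate 1 was the lowest of all libraries for Cyp2b9, as for Cyp2b10, and the lowest ACSS2-flox library for Cyp2b13. The levels of Cyp2b9 and Cyp2b13 differed less there from the other ACSS2-flox libraries than that of Cyp2b10, and the ratio of Cyp2b9 to Cyp2b10 was 256 in that library, against 2.46 to 38.2 in the other 5 libraries.

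The 5 tested Cyp2d genes had fold changes of -0.15 to 0.91, 4 of them negative. Their median was -0.01, and it was 0.23 without ACSS2-HKO replicate 3 and 0.26 without both distant libraries. The summed level was 1307, 1166 and 777 FPKM in ACSS2-HKO and 1188, 978 and 1079 FPKM in ACSS2-flox. Cyp2d9, a male-biased testosterone hydroxylase of mice, read 107, 38.8 and 35.7 FPKM in ACSS2-HKO and 19.01, 18.9 and 59.6 FPKM in ACSS2-flox. ACSS2-HKO replicate 1 was the highest, ACSS2-flox replicate 3 came next, and ACSS2-flox replicates 1 and 2 were the lowest. Cyp2d9 had a fold change of 0.91 ± 0.53 (limma adjusted p 0.696). Cyp2d26 read 643, 535 and 354 FPKM in ACSS2-HKO and 576, 444 and 489 FPKM in ACSS2-flox, a fold change of -0.01 ± 0.26 with a 95% interval of -0.61 to 0.58. Cyp2d10 read 405, 424 and 297 FPKM in ACSS2-HKO and 448, 389 and 385 FPKM in ACSS2-flox, a fold change of -0.13 ± 0.21 with a 95% interval of -0.61 to 0.35. Both intervals exclude a 2-fold difference.

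Cyp1a2, which oxidises caffeine and arylamines and answers to Ahr, read 351, 308 and 173 FPKM in ACSS2-HKO and 355, 258 and 306 FPKM in ACSS2-flox. ACSS2-HKO replicate 3 was the lowest library and the groups overlapped. The fold change was -0.20 ± 0.29, or 0.11 without that library. The other 2 Ahr targets of family 1 were under the tested level. Cyp1a1 was at most 0.598 FPKM and Cyp1b1 read 0.307, 0.297 and 0.987 FPKM in ACSS2-HKO and 0.282, 0.292 and 0.223 FPKM in ACSS2-flox, highest in ACSS2-HKO replicate 3. The Ahr core letters GCGTG were in 6 of the 42 P450 promoters (14.3%), Cyp1a1 and Cyp1b1 among them, against 32.5% of all promoters.

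Cyp2g1 (chromosome 7, 26808927 to 26821197), a steroid hydroxylase gene best known from the olfactory mucosa, was low in level and read 2.58, 1.95 and 2.30 FPKM in ACSS2-HKO and 10.8, 5.19 and 3.15 FPKM in ACSS2-flox. Every ACSS2-HKO library was below every ACSS2-flox library, and ACSS2-flox replicate 1 was the highest. Cyp2g1 had a fold change of -1.04 ± 0.35, for a limma adjusted p of 0.637 and an exact permutation p of 0.1; without ACSS2-flox replicate 1 it was -0.64.

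Cyp2j5, an arachidonic acid epoxygenase of liver and kidney, read 151, 159 and 126 FPKM in ACSS2-HKO and 165, 172 and 162 FPKM in ACSS2-flox. Its groups did not overlap, but the difference was small, with a fold change of -0.20 ± 0.17 (limma adjusted p 0.797), or -0.11 without both distant libraries. Cyp2f2, whose enzyme activates naphthalene in mice, read 357, 402 and 443 FPKM in ACSS2-HKO and 368, 470.0 and 329 FPKM in ACSS2-flox. Its fold change was 0.05 ± 0.21, with a 95% interval of -0.43 to 0.53.

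Cyp2r1, a vitamin D hydroxylase, read 6.04, 8.15 and 5.78 FPKM in ACSS2-HKO and 8.81, 6.36 and 7.22 FPKM in ACSS2-flox, a fold change of -0.15 ± 0.20. Cyp2u1, a fatty acid hydroxylase, read 0.582, 1.71 and 0.989 FPKM in ACSS2-HKO and 0.636, 1.42 and 1.42 FPKM in ACSS2-flox, a fold change of -0.06 ± 0.25. The groups of both overlapped. The remaining tested genes, Cyp2d22, Cyp2d40, Cyp2j6, Cyp2j9 and Cyp3a59 together with Cyp2c38, Cyp2c39 and Cyp2c67, had means of 1.12 to 87.6 FPKM and fold changes of -0.73 to -0.01. Without both distant libraries these ran from -0.13 to 0.26, with Cyp2d22, Cyp2d40, Cyp2j6, Cyp2j9 and Cyp2c38 positive. The 9 genes under the tested level (Cyp1a1, Cyp1b1, Cyp2b23, Cyp2d11, Cyp2d12, Cyp2d34, Cyp2j8, Cyp2s1 and Cyp3a57) did not exceed 0.987 FPKM in any library.

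Of the 10 listed female-biased P450 genes, 9 had negative fold changes, with a median of -0.55, and Cyp2b10 was the exception. That share lies near the 35 of 40 (87.5%) of all tested P450 genes, against 34% of all tested genes. The 1 listed male-biased gene, Cyp2d9, had a fold change of 0.91 ± 0.53. The median level relative to ACSS2-flox was -0.54, -0.26 and -1.47 in ACSS2-HKO and -0.09, 0.45 and -0.39 in ACSS2-flox. ACSS2-HKO replicate 3 was again the lowest, and the median without it was -0.25. Sex is not in the labels, and 4 Y-linked genes, chosen after values were seen, read at most 0.0162 FPKM in any library. The 9 listed CAR and PXR target members split into 6 negative and 3 positive, with a median of -0.18 that was 0.02 without ACSS2-HKO replicate 3.

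Among 23 tested regulators of P450 genes, 4 read lower at an unadjusted p under 0.05, where 1.5% of all tested genes did, and 0 read higher, where 6.09% did. Nr1i3, the CAR gene, read 44.0, 36.5 and 33.7 FPKM in ACSS2-HKO and 72.8, 52.7 and 43.5 FPKM in ACSS2-flox, a fold change of -0.53 ± 0.23. Its groups overlapped through ACSS2-flox replicate 3. Nr1i2, the PXR gene, read 44.8, 18.1 and 18.7 FPKM in ACSS2-HKO and 30.5, 38.2 and 41.8 FPKM in ACSS2-flox, a fold change of -0.54 ± 0.34; here ACSS2-HKO replicate 1 was the highest of all and the other 2 ACSS2-HKO libraries were the lowest. Cebpb, a transcription factor of the acute phase response and of hepatocyte genes, read 45.9, 43.5 and 61.0 FPKM in ACSS2-HKO and 94.0, 85.9 and 77.0 FPKM in ACSS2-flox, a fold change of -0.77 ± 0.19, with no overlap. The limma adjusted p was 0.649 for Nr1i3 and 0.556 for Cebpb. Without both distant libraries the fold change was -0.25 for Nr1i3 and -0.85 for Cebpb.

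The remaining 2 were Dbp and Tef, clock-driven factors that bind the D-box and in mice regulate P450 and CAR transcription together with Hlf. Dbp read 39.1, 31.3 and 29.1 FPKM in ACSS2-HKO and 135, 43.5 and 62.0 FPKM in ACSS2-flox, a fold change of -1.09 ± 0.37 that was -0.56 without both distant libraries. Tef read 20.3, 17.5 and 18.2 FPKM in ACSS2-HKO and 21.5, 28.6 and 28.2 FPKM in ACSS2-flox, a fold change of -0.46 ± 0.18. The groups of both did not overlap, ACSS2-HKO being lower, and the same held for Hlf, with a fold change of -0.34 ± 0.21 that was -0.12 without ACSS2-HKO replicate 3 and -0.076 without both distant libraries. The D-box letters TTATGTAA or TTATGCAA, on either strand and containing none of the other motifs sought, were in 4 of the 42 P450 promoters (9.52%), against 1.74% of all promoters. All 4 matches read TTGCATAA, the second form on the other strand. They lay in Cyp2a4 (chr7:26307096-26307155, plus strand), Cyp2a5 (chr7:26835242-26835301, plus strand), Cyp2b10 (chr7:25897574-25897633, plus strand) and Cyp2b23, and the first 3 are printed with the motif in capitals since their genes were tested.
Cyp2a4: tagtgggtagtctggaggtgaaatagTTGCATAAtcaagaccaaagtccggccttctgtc
Cyp2a5: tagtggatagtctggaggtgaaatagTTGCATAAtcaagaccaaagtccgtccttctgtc
Cyp2b10: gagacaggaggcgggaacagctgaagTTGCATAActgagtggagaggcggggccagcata
The promoters of Cyp2a4 and Cyp2a5 were 97.7% identical. Fold changes were -0.24 ± 0.28 for Cyp2a4, -0.51 ± 0.30 for Cyp2a5 and 1.31 ± 1.37 for Cyp2b10, the last negative without ACSS2-flox replicate 1. None of the 10 Cyp2c promoters in the table held the D-box letters.

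Targets of the same receptors outside families 1 to 3 went both ways. Of 22 tested CAR and PXR targets, 3 read lower at an unadjusted p under 0.05 (the carboxylesterase Ces2a, the transporter Slco1a4 and the sulphate donor enzyme Papss2) and 2 read higher (the glutathione transferase Gstm3 and the transporter Abcc3), where 1.5% of all tested genes read lower and 6.09% higher. Their median was 0.07, close to the 0.10 of all genes, and -0.04 with median-ratio scaling and -0.06 without both distant libraries. Of 3 tested Ahr targets outside the families, 2 had positive fold changes and 1 a negative one. Nqo1, a quinone reductase induced through Ahr and NRF2, read 14.0, 11.6 and 12.1 FPKM in ACSS2-HKO and 6.06, 8.04 and 7.04 FPKM in ACSS2-flox. Its fold change was 0.76 ± 0.18 with no overlap, where 12.5% of all tested genes lay wholly higher. The groups overlapped for Ugt1a6a (0.41 ± 0.25) and for Tiparp (-0.18 ± 0.22). The 7 listed electron partners and haem supply genes all had negative fold changes, where 34% of all tested genes did. These ran from -0.51 (Alas1) to -0.01 (Pgrmc2), with a median of -0.16 (-0.10 without both distant libraries). None of the 7 reached an unadjusted p of 0.05 by limma. Por read 325, 101 and 165 FPKM in ACSS2-HKO and 201, 208 and 182 FPKM in ACSS2-flox, with ACSS2-HKO replicate 1 the highest and ACSS2-HKO replicate 2 the lowest. Alas1, the first enzyme of haem synthesis, read 67.8, 91.5 and 111 FPKM in ACSS2-HKO and 194, 134 and 77.5 FPKM in ACSS2-flox, a fold change of -0.51 ± 0.34.

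The library in which P450 levels were lowest was also the one with the highest levels of other gene groups. The median level of 15 acute phase genes, which hepatocytes secrete or express in inflammation, was 0.86, 1.08 and 2.63 in ACSS2-HKO and -0.04, 0.04 and -0.15 in ACSS2-flox relative to the ACSS2-flox mean. All 15 had positive fold changes, where 34% of all tested genes had negative ones, and 12 read higher at an unadjusted p under 0.05, where 6.09% of all tested genes did. Their median fold change was 1.48, and 0.95 without ACSS2-HKO replicate 3. For 10 Kupffer cell markers the median level was 0.62, 0.53 and 1.72 in ACSS2-HKO and -0.39, 0.34 and 0.06 in ACSS2-flox, and their summed level was 673 to 1660 FPKM in ACSS2-HKO and 359 to 565 FPKM in ACSS2-flox, with no marker at 0 in all libraries. For the 3 tested of 10 neutrophil markers it was 1.66, 1.97 and 4.62 in ACSS2-HKO and 0.40, -0.06 and -0.32 in ACSS2-flox, and the 10 summed to 37.6 to 353 FPKM in ACSS2-HKO and 7.65 to 16.9 FPKM in ACSS2-flox. In ACSS2-HKO replicates 1 and 2 the P450 medians were -0.07 and -0.06, and the medians of all tested genes 0.11 and 0.12. The part of these groups in the P450 values was not tested.

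**Figure D5:**
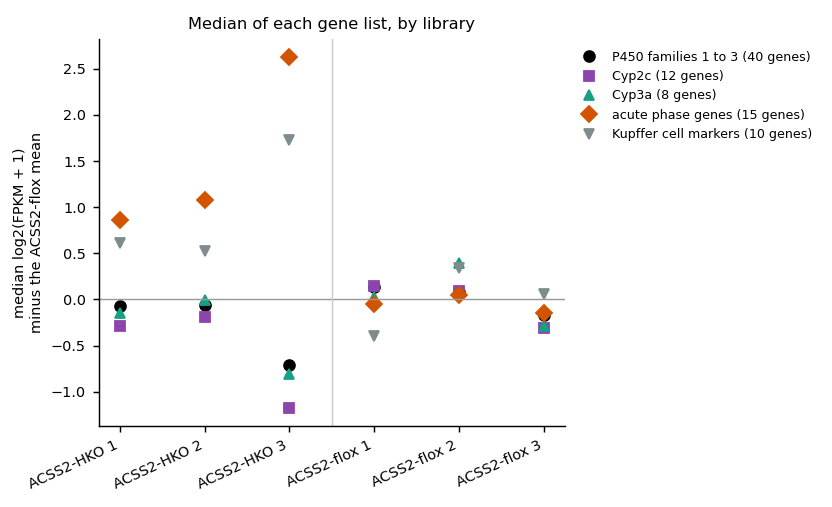
Median log2(FPKM + 1) minus the ACSS2-flox mean for 5 gene lists in each library, over the number of tested genes given in the legend. In ACSS2-HKO replicate 3 the P450 medians are the lowest and the acute phase and Kupffer cell medians the highest of the 6 libraries.

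Hepatocyte and zonal markers give the frame for these values. The 8 listed hepatocyte markers, Alb among them, summed to 52040 to 61770 FPKM in ACSS2-HKO and 66510 to 102600 FPKM in ACSS2-flox. Of their fold changes 7 of 8 were negative, where 34% of all tested genes were, with a median of -0.44 (-0.12 without both distant libraries). The 10 pericentral markers outside the P450 set had a median of 0.05, with 4 negative and 6 positive. It was -0.05 with median-ratio scaling and without both distant libraries alike. Their sum was 1407, 1571 and 1078 FPKM in ACSS2-HKO and 1576, 1797 and 1771 FPKM in ACSS2-flox. By limma, Oat (-0.64) and Lhpp (-0.49) read lower at an unadjusted p under 0.05, where 1.5% of all tested genes did, and 0 read higher. Both lay wholly lower, where 2.94% of all tested genes did. The 10 periportal markers had a median of 0.19, with 3 negative, and summed to 4330 to 5354 FPKM in ACSS2-HKO and 5010 to 5869 FPKM in ACSS2-flox. The measured markers of kidney and gut (Slc34a1, Vil1 and Lct) did not exceed 0.109 FPKM.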

How the data were processed

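Liver RNA of 6 libraries, 3 per genotype, was sequenced, and the genotype label set each group. The authors deposited 1 FPKM value per gene and library for 16135 genes. The submitters' processing notes name the build mm10 and the tool DESeq2 without a role, and for the aligner, counter and annotation the sources used here give nothing. FPKM values are shares of a library total, and a rise of a few abundant genes pulls the values of the rest down.

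Library totals were recovered as the whole numbers that make the FPKM values of 15768 genes (97.7%), all 49 P450 genes among them, whole fragments within 0.01. The 9818 genes averaging 1 FPKM or more were tested on log2(FPKM + 1) with limma 3.58.1 under R 4.3.3 (lmFit and trended eBayes). P-values are two-sided and Benjamini-Hochberg adjusted over all genes, with a threshold of 0.05. The pseudocount understates the fold change of low genes. A log2 fold change is the ACSS2-HKO mean minus the ACSS2-flox mean, with the standard error after ±. The exact permutation test ran over the 20 arrangements of the libraries. The steps were tested on simulated data. At the spread observed here, limma called 76.9% of 4-fold and 18.9% of 2-fold changes after adjustment, and 4 unchanged genes. At a low spread it called 100% of both and 10 unchanged genes. Alternatives were other pseudocounts (0.1 and 5), filters, scalings, variance models, the replicate number as a block, left-out libraries and, chosen after seeing the data, limma voom on the recovered fragments.

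Gene coordinates and promoters come from RefSeq (GRCm38.p6), matched by gene ID, and transcript windows from GENCODE. Values in all libraries are given for the 12 tested P450 genes of smallest p, the 10 of highest mean, the most abundant of each subfamily and the members of the sex-biased, Ahr and CAR or PXR target lists, which makes 32 genes. The members and the lists were chosen with earlier results of these data known. A comparison of protein sequences was not run.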

Additional observations from a re-analysis of the deposited data

How the results depend on the processing

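No P450 gene had an adjusted p under 0.05 in any of the 21 settings, and the lowest adjusted p of a named gene was 0.278. The median fold change stayed negative in all of them, between -0.38 and -0.06. The count of genes lower at an unadjusted p under 0.05, 4 as reported, was 1 without both distant libraries and 2 to 9 with single libraries left out; limma voom on the recovered fragments gave 4. The count higher, 0 as reported, was 1 with no filter, with TPM and with array weights (Cyp3a13 each time), and 0 to 1 with single libraries left out. The count of genes with all ACSS2-HKO values higher, 1 as reported, was 2 with no filter, 0 with median-ratio scaling, trimmed means of M-values and quantile normalization, 5 without both distant libraries and 1 to 2 with single libraries left out. The count with all values lower was 4 to 15 with single libraries left out. Groups of fewer libraries separate more easily, and the shares of all tested genes in these settings are not given.

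Whether the replicate number pairs the libraries is not known from the labels. Deviations of same-numbered libraries correlated at 0.013, 0.003 and -0.063, and those of differently numbered libraries at -0.17 to 0.154. With 3 libraries a group these correlations cannot decide it. With the number as a replicate block, 10 genes were lower at an unadjusted p under 0.05 and 0 passed the adjusted threshold. The share of all tested genes in that setting is not given.

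Of 32 named genes, 18 kept their sign in every setting and 14 turned in at least 1. The cause was not tested. Without both distant libraries the fold change was 0.23 for Cyp1a2, 0.15 for Cyp2a12, -0.30 for Cyp2b10, 0.24 for Cyp2b13, -0.077 for Cyp2c29, 0.02 for Cyp2c50, 0.10 for Cyp2d10, 0.33 for Cyp2d26, -0.054 for Cyp2f2, 0.046 for Cyp2r1 and 0.29 for Cyp3a25. With array weights it was 0.066 for Cyp1a2, 0.11 for Cyp2a12, -0.19 for Cyp2c29, 0.21 for Cyp2d26, -0.049 for Cyp2f2 and 0.12 for Cyp3a25. With median-ratio scaling, and equally with trimmed means of M-values, it was -0.13 for Cyp2c29 and -0.079 for Cyp2f2. Quantile normalization gave 0.025 for Cyp2a12 and 0.11 for Cyp2d26, and TPM 0.029 for Cyp2d26. With single libraries left out the fold change ran from -0.40 to 0.11 for Cyp1a2, -0.23 to 0.063 for Cyp2a12, -0.23 to 2.40 for Cyp2b10, -1.16 to 0.40 for Cyp2b13, -0.43 to 0.061 for Cyp2b9, -0.39 to 0.31 for Cyp2c29, -0.29 to 0.054 for Cyp2c50, -0.23 to 0.028 for Cyp2d10, -0.20 to 0.23 for Cyp2d26, -0.06 to 0.20 for Cyp2f2, -0.26 to 0.13 for Cyp2u1, -0.34 to 0.09 for Cyp3a25 and -0.59 to 0.089 for Cyp3a41a.

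With 3 libraries a group, the standard error of a P450 fold change ran from 0.17 to 1.37 with a median of 0.30, and 18 of the 40 intervals reach a 2-fold lower level.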
